A study of Homo sapiens with 16 samples.

Results

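The 9 genes described here encode chromatin factors around HCF-1, the host cell factor that O-GlcNAc transferase (OGT) binds, modifies and cleaves: HCFC1, THAP11, ZNF143, BAP1, ASXL1, FOXK1, FOXK2, TET2 and TET3. They were chosen by their known association with OGT or HCF-1, as rows of the count table whose Ensembl identifier maps to these symbols, and make up 9 of 60252 genes. The choice was made with earlier results of these data in view. The rule names no measured value, but ZNF143 may have been included with its difference between OGT siRNA and scrambled siRNA already known. That difference is therefore given as a description, with no test. The identifiers and chromosomes are ENSG00000172534 on X for HCFC1, ENSG00000168286 on 16 for THAP11, ENSG00000166478 on 11 for ZNF143, ENSG00000163930 on 3 for BAP1, ENSG00000171456 on 20 for ASXL1, ENSG00000164916 on 7 for FOXK1, ENSG00000141568 on 17 for FOXK2, ENSG00000168769 on 4 for TET2 and ENSG00000187605 on 2 for TET3.

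RNA of LNCaP cells, a line from a prostate cancer metastasis, was sequenced in 16 samples, 2 in each of 8 groups. The groups were siOGT1, siOGT2, OSMI2 and Scr, each with AT7519 and each with DMSO. siOGT1 and siOGT2 are separate siRNAs against OGT, Scr is a scrambled siRNA, OSMI2 is a small-molecule inhibitor of OGT catalysis, and AT7519 is an inhibitor of cyclin-dependent kinases that include CDK9, with DMSO as its vehicle. The labels give a knockdown time of 48 hours and an exposure to 0.5 μM AT7519 or DMSO of 4 hours. They list OSMI2 in the siRNA field, with its dose, its time and any accompanying siRNA not given in the sources used here. All samples come from 1 cell line, and nothing in the labels says that the 2 samples of a group were separate cultures, so each test is against the spread between samples, which may be technical.

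HCF-1 has no DNA-binding domain of its own. It is brought to promoters by sequence-specific factors such as THAP11 and ZNF143, which share a DNA site, and it recruits enzymes that write or erase histone marks. BAP1 is a deubiquitinase that removes ubiquitin from histone H2A within the PR-DUB complex, in which ASXL1 activates it, HCF-1 and OGT are bound, and the forkhead factors FOXK1 and FOXK2 give contact with DNA. TET2 and TET3 oxidise 5-methylcytosine and carry OGT to chromatin. These roles concern proteins and their modification, whereas the values below are levels of RNA.

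OGT RNA stood at 11.01 and 10.98 CPM for siOGT1, 29.28 and 33.76 CPM for siOGT2, 421.4 and 407.4 CPM for OSMI2 and 255.5 and 314.2 CPM for Scr with AT7519, a log2 fold change against Scr of -4.7 for siOGT1 (SE 0.152, edgeR adjusted p = 3.75e-12) and -3.18 for siOGT2 (SE 0.14, adjusted p = 6.68e-10). OGA, which removes O-GlcNAc, gave -2.35 with siOGT1 (SE 0.228, adjusted p = 4.16e-05) and -2.01 with siOGT2 (SE 0.225, adjusted p = 0.00035) in the same comparisons. CPM here is the count relative to library size after scaling by trimmed mean of M values (TMM), and adjusted p-values are over all tested genes. Libraries held 40216911 to 147019364 counts. Luminal prostate markers were high (KLK3 at 727 to 1660 CPM and FOLH1 at 1250 to 2410 CPM), and KRT5, TP63, PTPRC and COL1A2, which mark basal, immune and stromal cells, were at 0.0734 CPM or less in every sample. PECAM1 was not matched. The 9 matched markers of other cell types, most of whose CPM were COL1A1 (10.8 to 40.8) and VIM (6 to 16.9), summed to 27.2 to 32.9 CPM for siOGT1, 37 to 41.3 CPM for siOGT2, 46.9 to 56.2 CPM for OSMI2 and 39.7 to 45 CPM for Scr with AT7519. With DMSO they summed to 25.1 to 26.2 CPM for siOGT1, 32.4 to 34.5 CPM for siOGT2, 33.8 to 42 CPM for OSMI2 and 32.6 to 33.3 CPM for Scr. Their part in the results was not tested. In RNA of whole cultures, fewer cells of a kind and less RNA per cell cannot be told apart.

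All 9 genes passed the filter on low counts, which kept 23830 genes. Levels between genes were compared per kilobase of merged exon (GENCODE v29). In Scr with DMSO, BAP1 was highest at 21.04 ± 1.11 CPM per kb (SD, n = 2), followed by HCFC1 at 15.37 ± 0.352, THAP11 at 10.03 ± 0.985 and ZNF143 at 9.13 ± 0.661 CPM per kb. FOXK2 stood at 6.713 ± 0.0572, ASXL1 at 6.083 ± 0.308, FOXK1 at 5.021 ± 0.0927, TET3 at 4.728 ± 0.0525 and TET2 at 3.636 ± 0.382 CPM per kb (SD, n = 2 each). The 2 samples overlapped between THAP11 and ZNF143 and between no other neighbours in this order. BAP1 exceeded 90.4% and TET2 62.3% of 23332 tested genes with a length. The genes differ in structure: THAP11 has a single exon and a span of 2.1 kb, BAP1 has up to 17 exons in 9.3 kb and HCFC1 up to 26 in 24.3 kb, whereas FOXK2, TET3 and TET2 span 125, 121.8 and 133.9 kb with up to 10, 11 and 11 exons in a transcript.

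**Figure D1:**
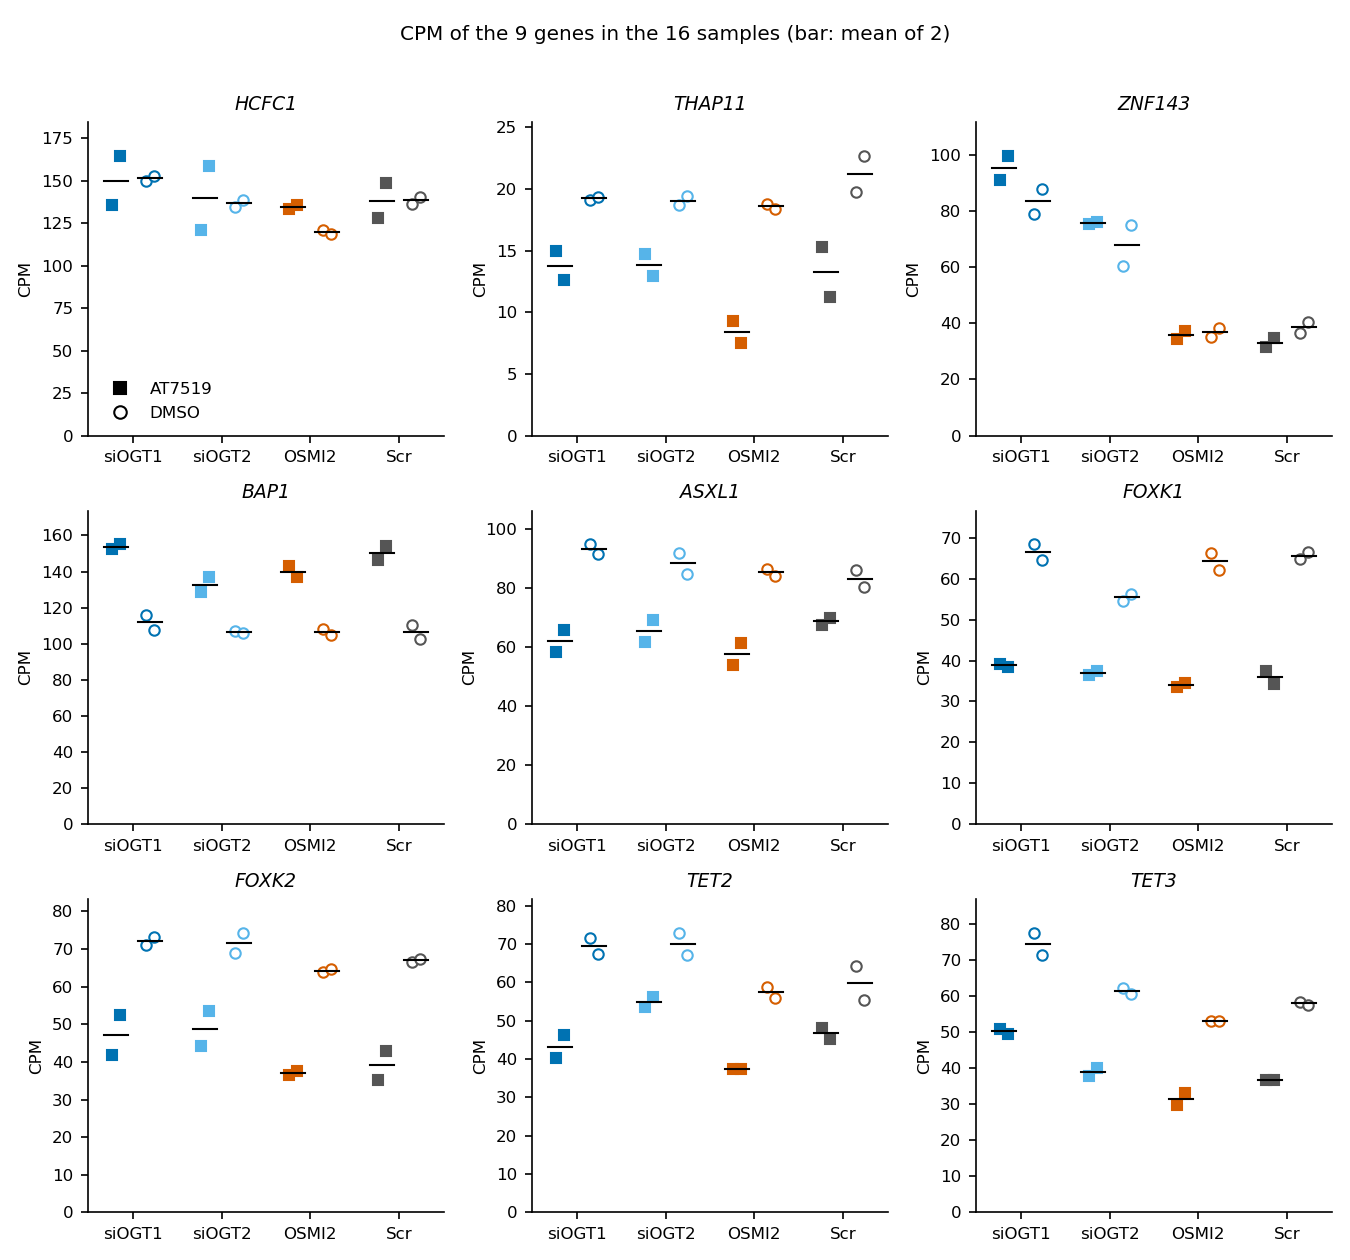
CPM (y axis, from 0) of each of the 9 genes in the 16 samples, by arm (x axis). Filled squares are AT7519 samples, open circles DMSO samples and bars the mean of 2. ZNF143 stands at 60.5 to 99.61 CPM in the siOGT1 and siOGT2 samples and at 31.38 to 40.63 CPM in the OSMI2 and Scr samples, while BAP1 is higher and THAP11, ASXL1, FOXK1, FOXK2, TET2 and TET3 are lower with AT7519 in every arm.

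The letters shown next are the 250 bases before the annotated start of ZNF143, the gene that differed most with OGT siRNA, and of THAP11, its partner on the shared site, which was lower with AT7519 (RefSeq, GRCh38.p14, plus strand, chr11:9460762-9461011 and chr16:67842070-67842319). They were read to see whether the factors' own upstream windows hold letters of sites at which HCF-1 is known to be recruited.
ZNF143: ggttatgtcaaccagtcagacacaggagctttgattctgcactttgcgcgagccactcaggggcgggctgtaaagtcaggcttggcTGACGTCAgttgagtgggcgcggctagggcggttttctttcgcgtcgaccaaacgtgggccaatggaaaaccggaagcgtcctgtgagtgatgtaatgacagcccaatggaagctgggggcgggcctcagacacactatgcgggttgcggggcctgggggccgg
THAP11: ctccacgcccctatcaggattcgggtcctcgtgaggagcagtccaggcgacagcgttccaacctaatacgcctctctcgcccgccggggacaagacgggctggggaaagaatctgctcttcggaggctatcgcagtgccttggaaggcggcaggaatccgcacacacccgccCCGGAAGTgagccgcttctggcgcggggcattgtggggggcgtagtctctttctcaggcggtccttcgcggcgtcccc
Capitals mark matches on either strand to ACTACAA, the core of the ZNF143 and THAP11 site, CCGGAAGT (GABP), AAGATGGCG (YY1) or TGACGTCA (CREB and ATF factors). The last 3 were added after the windows had been read, and none of the 4 overlaps another in these windows. ZNF143 holds TGACGTCA, which reads the same on both strands and starts 164 bases before the annotated start, and THAP11 holds CCGGAAGT, 78 bases before it. Of 35116 such windows, 1.65% hold TGACGTCA, 3.42% CCGGAAGT, 0.652% AAGATGGCG and 2.47% ACTACAA. Of the 7 members with a window, ZNF143 and THAP11 were the only ones with an exact match to any of these 4. As 3 of the 4 were chosen with the windows in view, this is no result about the 2 genes. No member's window holds ACTACAA exactly. Variants of the letters were not searched, so a site in another form is not excluded. Matches are descriptions of letters, not of binding.

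HCFC1, which encodes HCF-1 itself, was at a similar level in all groups. It stood at 135.5 and 164.5 CPM for siOGT1, 121.1 and 158.8 CPM for siOGT2, 133.2 and 135.5 CPM for OSMI2 and 128.2 and 148.3 CPM for Scr with AT7519. With DMSO it stood at 150 and 152.4 CPM for siOGT1, 134.3 and 138.7 CPM for siOGT2, 121 and 118.7 CPM for OSMI2 and 136.1 and 140.6 CPM for Scr. With AT7519 the samples of siOGT1, siOGT2 and OSMI2 each overlapped those of Scr. With DMSO both siOGT1 samples lay above and both OSMI2 samples below those of Scr, and siOGT2 overlapped Scr. In OSMI2 both AT7519 samples lay above both DMSO samples. Across the 15 comparisons its log2 fold change or difference of responses lay between -0.207 (SE 0.107, OSMI2 against Scr under DMSO) and 0.165 (SE 0.151, difference of OSMI2 from Scr in the AT7519 response), and none was called at an adjusted p under 0.05 by edgeR's quasi-likelihood test. HCFC2, a paralog of HCFC1 that lacks most of the central part of HCF-1, is described with the gene lists.

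ZNF143, a zinc finger activator that shares sites with THAP11, was higher in both siRNA arms than in Scr, and not in OSMI2. With AT7519 it stood at 91.18 and 99.61 CPM for siOGT1, 75.25 and 76.11 CPM for siOGT2, 34.54 and 37.29 CPM for OSMI2 and 31.38 and 34.6 CPM for Scr. Under DMSO the values were 78.78 and 87.98 CPM for siOGT1, 60.5 and 75.09 CPM for siOGT2, 35 and 38.47 CPM for OSMI2 and 36.67 and 40.63 CPM for Scr. All 8 siRNA samples against OGT lay above all 8 other samples, and siOGT1 lay above siOGT2 with either agent. The log2 fold change against Scr under AT7519 was 1.53 for siOGT1 (SE 0.106, 2.89-fold), 1.2 for siOGT2 (SE 0.105, 2.29-fold) and 0.12 for OSMI2 (SE 0.105). Under DMSO it was 1.11 for siOGT1 (SE 0.104, 2.16-fold), 0.81 for siOGT2 (SE 0.104, 1.75-fold) and -0.0719 for OSMI2 (SE 0.104). Between the siRNAs, siOGT1 against siOGT2, it was 0.33 under AT7519 (SE 0.102) and 0.298 under DMSO (SE 0.103). An antisense gene on the opposite strand, AC132192.2, shares 321 exon bases with ZNF143 and stood at 1.32 to 2.67 CPM, with 1.47 and 1.94 CPM for siOGT1 and siOGT2 against 2.15 CPM for Scr as means with AT7519.

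The other 8 members moved less between the arms. With the siRNAs against Scr, TET3 was the only one of them called. TET3 stood at 50.8 and 49.64 CPM for siOGT1, 37.73 and 40.04 CPM for siOGT2, 29.92 and 33.13 CPM for OSMI2 and 36.76 and 36.88 CPM for Scr with AT7519. With DMSO it stood at 77.65 and 71.56 CPM for siOGT1, 62.25 and 60.55 CPM for siOGT2, 53.24 and 53.15 CPM for OSMI2 and 58.47 and 57.56 CPM for Scr. Both siOGT1 samples lay above, and both OSMI2 samples below, all samples of the other arms with the same agent. TET3 rose with siOGT1 against Scr under AT7519 (log2 fold change 0.45, SE 0.083, edgeR adjusted p = 0.000707) and under DMSO (0.36, SE 0.0817, adjusted p = 0.0065). The call under DMSO was lost without Scr replicate 1 (0.38, adjusted p = 0.0528), without Scr replicate 2 (0.35, adjusted p = 0.0743) and without siOGT1 replicate 1 (0.299, adjusted p = 0.106). With siOGT2 its values against Scr were 0.0786 under AT7519 (SE 0.0832, adjusted p = 0.662) and 0.0819 under DMSO (SE 0.082, adjusted p = 0.694). The direct difference of siOGT1 from siOGT2, compared after these values had been seen, was 0.37 under AT7519 (SE 0.0828, adjusted p = 0.00847) and 0.28 under DMSO (SE 0.0819, adjusted p = 0.0984). That call was lost without siOGT1 replicate 1 (0.34, adjusted p = 0.0625) or siOGT2 replicate 1 with AT7519 (0.325, adjusted p = 0.0622), and in a fit of those groups alone (0.39, adjusted p = 0.125).

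TET2 differed between the siRNAs the other way under AT7519. It stood at 40.16 and 46.22 CPM for siOGT1, 53.61 and 56.2 CPM for siOGT2, 37.33 and 37.31 CPM for OSMI2 and 48.13 and 45.25 CPM for Scr with AT7519. The siOGT2 samples were the highest and the OSMI2 samples the lowest, and siOGT1 overlapped Scr. TET2 fell in siOGT1 against siOGT2 under AT7519 (log2 fold change -0.345, SE 0.0934, adjusted p = 0.0291), a call lost without siOGT1 replicate 1 (-0.26, adjusted p = 0.236) or siOGT2 replicate 2 (-0.31, adjusted p = 0.116), with library size only (-0.305, adjusted p = 0.0625) and in a fit of those groups alone (-0.33, adjusted p = 0.224). Under DMSO that value was -0.0131 (SE 0.0925, adjusted p = 0.983). Against Scr, siOGT1 gave -0.11 (SE 0.0935, adjusted p = 0.458) and siOGT2 0.23 (SE 0.0934, adjusted p = 0.138) under AT7519.

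Of the other 8 members, 1 was called in siOGT1 against Scr under AT7519, where 19.2% of all tested genes were called in either direction, and 1 under DMSO, where 10.4% were. In siOGT2 against Scr, edgeR called 0 of these 8 under AT7519, where 8.16% of all genes were called, and 0 under DMSO, where 4.3% were. This depends on the fit. With a replicate block within agent, edgeR called FOXK2, TET2 and BAP1 under AT7519 (adjusted p = 0.00286, 0.0306 and 0.0471). Under DMSO it called FOXK1 and TET2 (adjusted p = 0.0263 and 0.0449). Of all genes, that fit called 3931 and 2574. Without a block, an unadjusted p under 0.05 was met by 3 of these 8 under AT7519 and 2 under DMSO. Of 23830 tested genes, 5177 and 3993 met it. DESeq2 called 0 of the 8 under AT7519 and 1, FOXK1, under DMSO, where it called 1594 genes. In siOGT1 against siOGT2, 2 were called under AT7519 (6.43% of all genes) and 0 under DMSO (1.82%). Under DMSO 2 had an unadjusted p under 0.05, as did 2692 of all tested genes. DESeq2 called 2 there, and 816 of all genes. Counts of 0 or 1 of 8 lie near the shares of all genes called and are no result about the members as a set. The median log2 fold change of the 9 members was 0.11 in siOGT1 and 0.0595 in siOGT2 against Scr under AT7519, beside -0.028 and 0.00582 for all genes, and 0.13 and 0.0819 under DMSO, beside -0.00899 and -0.0188.

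FOXK2, which binds DNA for PR-DUB, was near the threshold with both siRNAs under AT7519 in the main fit. With a replicate block within agent it passed for both (edgeR adjusted p = 0.00666 for siOGT1 and 0.00286 for siOGT2). It stood at 41.85 and 52.36 CPM for siOGT1, 44.13 and 53.59 CPM for siOGT2 and 35.29 and 42.81 CPM for Scr. siOGT1 overlapped Scr and siOGT2 did not. The values against Scr were 0.27 for siOGT1 (SE 0.112, adjusted p = 0.0982) and 0.32 for siOGT2 (SE 0.112, adjusted p = 0.0829), and both passed without Scr replicate 2 (0.42, adjusted p = 0.0359, and 0.475, adjusted p = 0.0454) and without replicate 1 of the siRNA (0.41, adjusted p = 0.0309, and 0.45, adjusted p = 0.0323). FOXK1, its paralog, had values of 0.11 (SE 0.0826, adjusted p = 0.39) and 0.0367 (SE 0.0827, adjusted p = 0.862) in the same comparisons. BAP1 had 0.0345 (SE 0.0739, adjusted p = 0.8) and -0.18 (SE 0.074, adjusted p = 0.15), and ASXL1 had -0.14 (SE 0.0897, adjusted p = 0.296) and -0.0692 (SE 0.0897, adjusted p = 0.734).

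**Figure D2:**
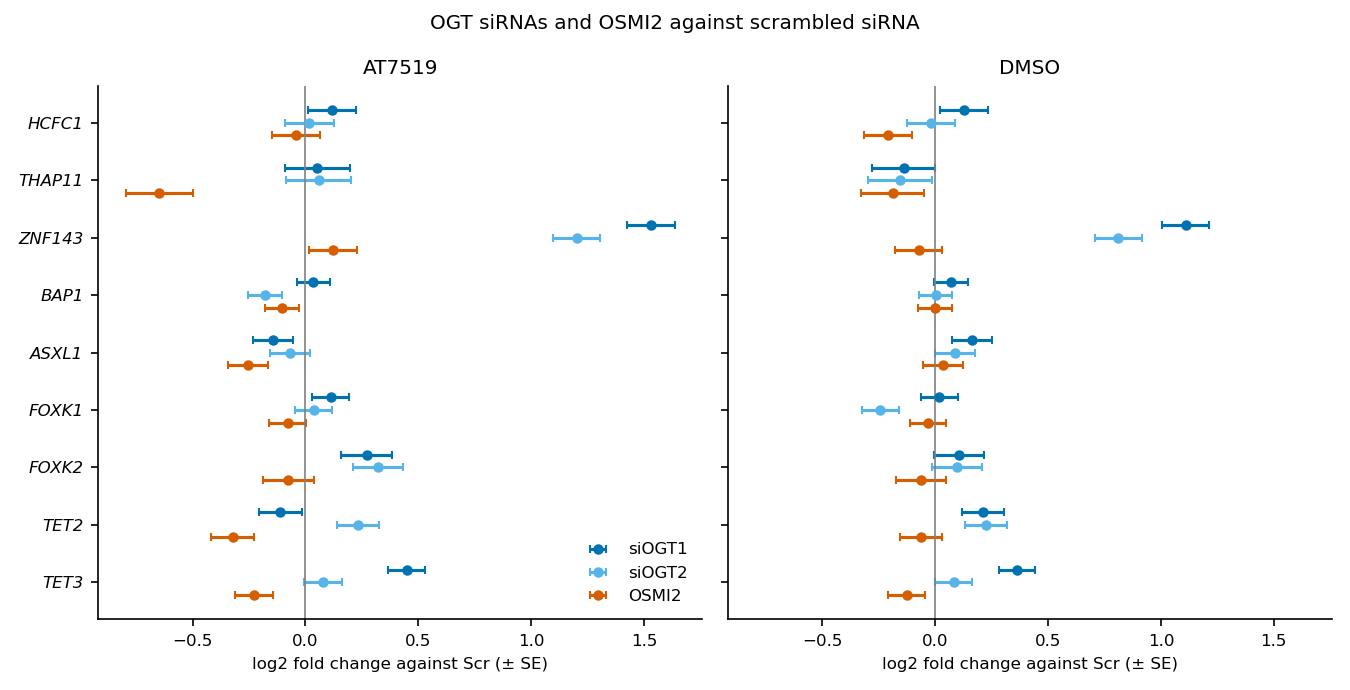
Log2 fold change against Scr (x axis, bars ± SE) of the 9 genes (y axis) for siOGT1, siOGT2 and OSMI2, with AT7519 on the left and DMSO on the right, on one scale. ZNF143 lies at 0.81 to 1.53 with the siRNAs and at -0.0719 and 0.12 with OSMI2, and TET3 lies apart with siOGT1 at 0.45 and 0.36.

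THAP11 and TET2 fell with OSMI2 against Scr under AT7519. Deviations of same-numbered replicates correlated little between OSMI2 and Scr (r of 0.095 with AT7519 and 0.0448 with DMSO). Between Scr and the siRNA arms r was 0.604 to 0.707 within an agent. OSMI2 against Scr can therefore hold a further difference beside the inhibitor, which was not tested. THAP11, the zinc finger protein that recruits HCF-1 to its sites, stood at 9.299 and 7.526 CPM for OSMI2, 14.95 and 12.62 CPM for siOGT1, 14.68 and 12.96 CPM for siOGT2 and 15.32 and 11.26 CPM for Scr. Both OSMI2 samples lay below all others, and the remaining 3 arms overlapped. Against Scr, THAP11 fell by 0.648 on the log2 scale (SE 0.148, edgeR adjusted p = 0.00591), a call lost without Scr replicate 1 (-0.46, adjusted p = 0.0922) or OSMI2 replicate 2 (-0.54, adjusted p = 0.0729). TET2 fell by 0.323 (SE 0.0944, adjusted p = 0.0262). Its call was lost without Scr replicate 1 (-0.33, adjusted p = 0.0807) or OSMI2 replicate 2 (-0.35, adjusted p = 0.076), with upper-quartile scaling (-0.23, adjusted p = 0.103), with library size only (-0.22, adjusted p = 0.139) and in a fit of those groups alone (-0.31, adjusted p = 0.0746). ASXL1 at -0.254 (SE 0.0902, adjusted p = 0.0665) and TET3 at -0.226 (SE 0.084, adjusted p = 0.0793) did not pass, and both passed with RLE scaling (-0.286, adjusted p = 0.0318, and -0.26, adjusted p = 0.0414). So 2 of 9 members were called, both lower, where 14.2% of all tested genes were called. Of those genes 1235 were higher and 2147 lower, a split that became 1942 and 1387 with upper-quartile scaling and 1940 and 1367 with library size only.

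Under DMSO, OSMI2 against Scr called 0 of 9 members, where 2.98% of all genes were called. DESeq2 called 0 as well, beside 1476 of all genes. An unadjusted p under 0.05 was met by 0 members, beside 3623 of 23830 tested genes. The largest values were -0.207 for HCFC1 (SE 0.107, adjusted p = 0.379) and -0.188 for THAP11 (SE 0.14, adjusted p = 0.6). THAP11 stood at 18.78 and 18.4 CPM for OSMI2 against 19.72 and 22.67 CPM for Scr, and the groups did not overlap. The difference of OSMI2 from Scr in the AT7519 response was -0.46 for THAP11 (SE 0.204, adjusted p = 0.507), so a larger response in OSMI2 was not shown.

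AT7519 lowered 6 of the 9 members and raised 1 in every arm. THAP11, ASXL1, FOXK1, FOXK2, TET2 and TET3 fell, BAP1 rose, and HCFC1 and ZNF143 did not pass. Among all tested genes AT7519 called 41.5% in siOGT1 (19.4% higher, 22% lower), 45% in siOGT2 (22.2% higher, 22.8% lower), 47.2% in OSMI2 (23.6% higher, 23.6% lower) and 46.5% in Scr (21.8% higher, 24.6% lower). Many tested genes are weaker than the members. Genes with a mean log2 CPM of 3 or more, as all 9 have, numbered 10158 in the main fit. A fit of such genes alone called 6318, 6519, 7122 and 6782 in these arms, a larger share. The median log2 fold change of the 9 members was -0.57 in siOGT1, -0.43 in siOGT2, -0.62 in OSMI2 and -0.36 in Scr, beside -0.0475, -0.0335, 0.0232 and -0.0498 for all genes. Counts with AT7519 depend on the scaling: the median of all genes moved by 0.107 to 0.172 with upper-quartile scaling and by -0.264 to -0.222 with library size only. Of the genes called, 46.9%, 49.2%, 50.1% and 47% were higher in siOGT1, siOGT2, OSMI2 and Scr. These shares became 59.1%, 57.8%, 62.1% and 58.7% with upper-quartile scaling and 25.5%, 26.1%, 29.2% and 26.9% with library size only. Members lower with AT7519 then numbered 6, 6, 6 and 4 with upper-quartile scaling and 6, 6, 7 and 7 with library size only. All changes with AT7519 are thus relative to the other genes. Deviations of same-numbered replicates correlated within an agent among Scr, siOGT1 and siOGT2 (r of 0.604 to 0.734). Those of OSMI2 correlated less with the other arms under the same agent (r of 0.0448 to 0.185). Between OSMI2 with AT7519 and OSMI2 with DMSO, r was 0.432. Comparisons of AT7519 with DMSO, and of OSMI2 with Scr, can therefore hold a further difference beside the named treatment. Such a difference cannot be separated from the treatment here and was not tested.

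BAP1, the catalytic subunit, stood at 152.5 and 155.1 CPM for siOGT1, 128.4 and 136.7 CPM for siOGT2, 142.8 and 136.9 CPM for OSMI2 and 146.3 and 154 CPM for Scr with AT7519. Under DMSO the values were 115.8 and 107.7 CPM for siOGT1, 107.1 and 106 CPM for siOGT2, 108.1 and 104.7 CPM for OSMI2 and 110.3 and 102.4 CPM for Scr. Every AT7519 sample lay above every DMSO sample. The log2 fold change was 0.46 in siOGT1 (SE 0.074, adjusted p = 4.28e-05), 0.315 in siOGT2 (SE 0.0743, adjusted p = 0.00165), 0.39 in OSMI2 (SE 0.0743, adjusted p = 0.000179) and 0.498 in Scr (SE 0.0741, adjusted p = 1.44e-05). With library size only it was 0.0504 in siOGT2 (adjusted p = 0.629) and 0.146 in OSMI2 (adjusted p = 0.138), which ended those calls.

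ASXL1, the cofactor that BAP1 needs for activity, fell while BAP1 rose. It stood at 58.38 and 65.87 CPM for siOGT1, 61.8 and 69.1 CPM for siOGT2, 53.89 and 61.42 CPM for OSMI2 and 67.52 and 69.79 CPM for Scr with AT7519. With DMSO it stood at 94.82 and 91.63 CPM for siOGT1, 91.94 and 84.83 CPM for siOGT2, 86.6 and 84.01 CPM for OSMI2 and 86.16 and 80.21 CPM for Scr. The highest AT7519 sample of all arms was below the lowest DMSO sample. The change was -0.585 in siOGT1 (SE 0.0895, adjusted p = 2.52e-05), -0.43 in siOGT2 (SE 0.0897, adjusted p = 0.00051), -0.57 in OSMI2 (SE 0.0901, adjusted p = 2.78e-05) and -0.28 in Scr (SE 0.0894, adjusted p = 0.015). In Scr the call was lost with upper-quartile scaling (-0.12, adjusted p = 0.282), without Scr replicate 1 with DMSO (-0.23, adjusted p = 0.122) and without Scr replicate 1 with AT7519 (-0.22, adjusted p = 0.113).

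FOXK1 and FOXK2 fell in parallel and were among the members with the largest changes. FOXK1 stood at 39.3 and 38.4 CPM for siOGT1, 36.4 and 37.37 CPM for siOGT2, 33.57 and 34.52 CPM for OSMI2 and 37.59 and 34.35 CPM for Scr with AT7519. Under DMSO the values were 68.5 and 64.63 CPM for siOGT1, 54.71 and 56.37 CPM for siOGT2, 66.37 and 62.24 CPM for OSMI2 and 64.88 and 66.59 CPM for Scr. The siOGT2 samples were the lowest of the DMSO samples, yet above every AT7519 sample. The fall of FOXK1 was -0.78 in siOGT1 (SE 0.0821, adjusted p = 3.19e-07), -0.59 in siOGT2 (SE 0.0825, adjusted p = 7.86e-06), -0.92 in OSMI2 (SE 0.083, adjusted p = 2.48e-08) and -0.87 in Scr (SE 0.0824, adjusted p = 5.31e-08). FOXK2 fell, with log2 fold changes of -0.615 in siOGT1 (SE 0.111, adjusted p = 0.000145), -0.553 in siOGT2 (SE 0.111, adjusted p = 0.000385), -0.795 in OSMI2 (SE 0.112, adjusted p = 6.99e-06) and -0.779 in Scr (SE 0.112, adjusted p = 9.08e-06). Its samples ran from 35.29 to 53.59 CPM with AT7519 and from 63.95 to 74.35 CPM with DMSO, with no overlap. Over the 8 group means, FOXK1 and FOXK2 differed by a root mean square of 0.14 log2 units after each was centred, the second smallest distance between members after that of ASXL1 and TET2 (0.118). On the opposite strand, WDR45B shares 53 exon bases with FOXK2 at 72.3 to 91.7 CPM, AC124283.2 shares 162 at 0.711 to 4.6 CPM, and AC124283.1 shares 1190 and was at 0 in every sample.

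TET2 and TET3, the dioxygenases that bind OGT, fell in all arms. TET3 fell, with log2 fold changes of -0.572 in siOGT1 (SE 0.0821, adjusted p = 1.24e-05), -0.659 in siOGT2 (SE 0.083, adjusted p = 2.37e-06), -0.757 in OSMI2 (SE 0.0837, adjusted p = 3.38e-07) and -0.656 in Scr (SE 0.0828, adjusted p = 1.99e-06). TET2 stood at 71.43 and 67.32 CPM for siOGT1, 72.94 and 67.11 CPM for siOGT2, 58.85 and 55.93 CPM for OSMI2 and 64.35 and 55.45 CPM for Scr with DMSO, with its AT7519 values given above. Within each arm both AT7519 samples were below both DMSO samples, but the siOGT2 samples with AT7519 overlapped the Scr samples with DMSO. The change of TET2 was -0.68 in siOGT1 (SE 0.0932, adjusted p = 6.75e-06), -0.35 in siOGT2 (SE 0.0931, adjusted p = 0.00417), -0.62 in OSMI2 (SE 0.0941, adjusted p = 1.61e-05) and -0.36 in Scr (SE 0.0931, adjusted p = 0.00324). In Scr the call was lost with upper-quartile scaling (-0.208, adjusted p = 0.0638) and without Scr replicate 1 with DMSO (-0.253, adjusted p = 0.084), and in siOGT2 without replicate 1 with DMSO (-0.288, adjusted p = 0.0637).

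THAP11 stood at 19.13 and 19.34 CPM for siOGT1, 18.67 and 19.39 CPM for siOGT2, 18.78 and 18.4 CPM for OSMI2 and 19.72 and 22.67 CPM for Scr with DMSO, all above its AT7519 samples given above. It fell, with log2 fold changes of -0.483 in siOGT1 (SE 0.142, adjusted p = 0.00941), -0.461 in siOGT2 (SE 0.143, adjusted p = 0.0125), -1.13 in OSMI2 (SE 0.147, adjusted p = 2.53e-06) and -0.675 in Scr (SE 0.143, adjusted p = 0.000581). The call in siOGT1 was lost without replicate 2 with AT7519 (-0.34, adjusted p = 0.141), and that in siOGT2 without replicate 2 with AT7519 (-0.37, adjusted p = 0.102) or with DMSO (-0.44, adjusted p = 0.065). THAP11 shares 380 exon bases with CENPT on the opposite strand, whether counting used the strand was not given in the sources used here. Its values are uncertain to that extent. CENPT was higher with AT7519, at means of 44.4, 44.5, 49.9 and 45.6 CPM for siOGT1, siOGT2, OSMI2 and Scr against 34.4, 32.2, 33.6 and 31.5 CPM with DMSO.

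ZNF143 and HCFC1 were not called in any arm. ZNF143 with AT7519 against DMSO gave 0.195 in siOGT1 (SE 0.102, adjusted p = 0.136), 0.16 in siOGT2 (SE 0.103, adjusted p = 0.223), -0.0345 in OSMI2 (SE 0.105, adjusted p = 0.815) and -0.23 in Scr (SE 0.104, adjusted p = 0.0816). The siRNA arms lay above and Scr below their DMSO samples without overlap. Several of these passed under another setting. With library size only ZNF143 was at -0.47 in Scr (adjusted p = 0.00141) and -0.28 in OSMI2 (adjusted p = 0.0408), and with upper-quartile scaling at 0.33 in siOGT1 (adjusted p = 0.0184). It was at -0.27 in Scr when genes with a mean log2 CPM under 3 were dropped (adjusted p = 0.0434) and at 0.32 in siOGT2 without DMSO replicate 2 (adjusted p = 0.0404). HCFC1 gave -0.011 in siOGT1, 0.0357 in siOGT2, 0.16 in OSMI2 and -0.000699 in Scr (SE 0.107 each, adjusted p of 0.221 to 0.997), and it passed in OSMI2 with upper-quartile scaling (0.34, adjusted p = 0.0266).

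**Figure D3:**
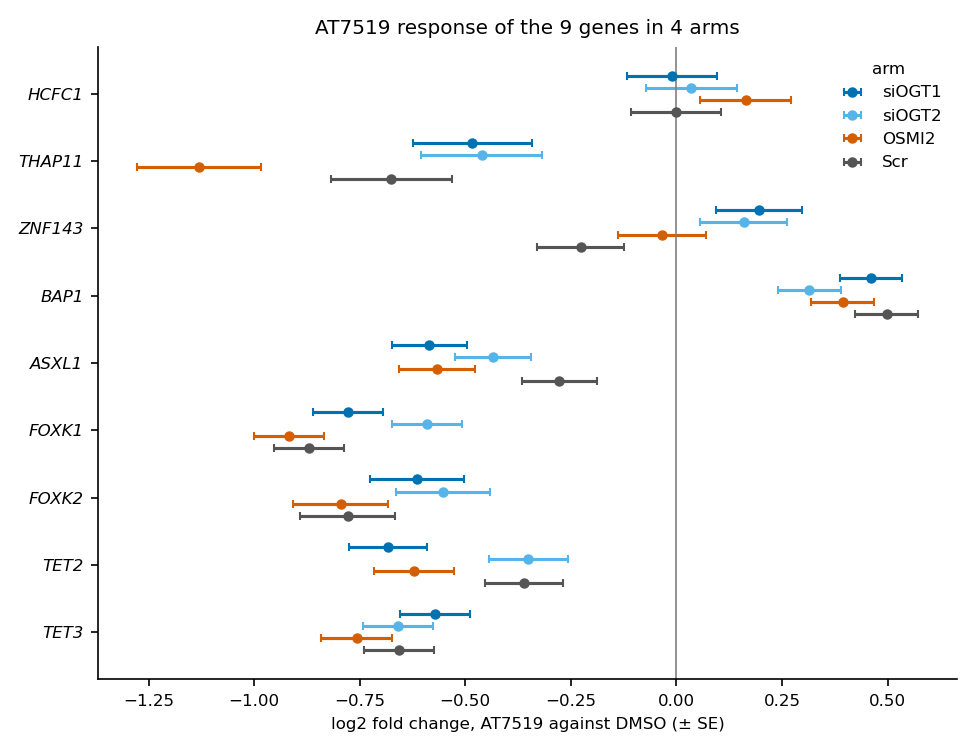
Log2 fold change with AT7519 against DMSO (x axis, bars ± SE) of the 9 genes (y axis) in the 4 arms. BAP1 lies to the right of 0 at 0.315 to 0.498, HCFC1 and ZNF143 lie around 0, and the other 6 lie to the left, FOXK1 at -0.92 to -0.59 and THAP11 as low as -1.13 in OSMI2.

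The AT7519 response of the members was not shown to depend on the arm. For the difference of an arm from Scr in the AT7519 response, edgeR and DESeq2 called 0 of the 8 members other than ZNF143 in any of the 3 arms, and 2, 1 and 2 of them had an unadjusted p under 0.05 for siOGT1, siOGT2 and OSMI2. Over all tested genes the shares called were 0.0504% for siOGT1, 0% for siOGT2 and 0.747% for OSMI2. An unadjusted p under 0.05 was met by 1393, 928 and 2087 of 23830 tested genes for siOGT1, siOGT2 and OSMI2. DESeq2 called 124, 3 and 489 genes in that order, and for siOGT2 no gene passed with edgeR. The differences ran from -0.32 for TET2 (SE 0.131, adjusted p = 0.728) to 0.19 for THAP11 (SE 0.201, adjusted p = 1) in siOGT1, from -0.18 for BAP1 (SE 0.105) to 0.28 for FOXK1 (SE 0.116) in siOGT2, and from -0.46 for THAP11 to 0.165 for HCFC1 in OSMI2. The values of ZNF143 were 0.42 for siOGT1 (SE 0.146), 0.39 for siOGT2 (SE 0.146) and 0.19 for OSMI2 (SE 0.148).

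Of the paralogs, ASXL2, HCFC2 and TET1 also fell with AT7519 in every arm, and ZNF76 was not called. ASXL2, another activator of BAP1, stood at 37.22 and 37.59 CPM for siOGT1, 37.68 and 37.29 CPM for siOGT2, 26.24 and 26.84 CPM for OSMI2 and 32.68 and 29.6 CPM for Scr with AT7519, against 91.57 and 84.79, 91.18 and 90.84, 80.13 and 73.02, and 83.09 and 75.2 CPM with DMSO in the same order of arms. It fell, with log2 fold changes of -1.24 in siOGT1 (SE 0.0856, adjusted p = 1.54e-09), -1.28 in siOGT2 (SE 0.086, adjusted p = 1.09e-09), -1.53 in OSMI2 (SE 0.0874, adjusted p = 6.84e-11) and -1.35 in Scr (SE 0.0863, adjusted p = 4.12e-10), each a larger fold change than that of ASXL1. HCFC2 fell, with -0.972, -0.957, -1.53 and -0.966 in siOGT1, siOGT2, OSMI2 and Scr (highest adjusted p = 1.65e-06), and TET1, at 1.934 to 5.266 CPM, fell, with -0.768, -0.553, -0.599 and -0.7 (highest adjusted p = 0.0406). ZNF76, the paralog of ZNF143, gave -0.0817, -0.226, 0.134 and -0.123 (lowest adjusted p = 0.0781). Against Scr under AT7519, ZNF76 rose with OSMI2 (0.346, SE 0.102, adjusted p = 0.0276) and gave 0.286 with siOGT1 (SE 0.102, adjusted p = 0.0543) and 0.0875 with siOGT2 (SE 0.102, adjusted p = 0.698). HCFC2 fell with OSMI2 (-0.663, SE 0.122, adjusted p = 0.00107) and ASXL2 rose with siOGT1 (0.265, SE 0.0859, adjusted p = 0.0349) in the same comparisons. ASXL3 was at 0 in all samples except 1 of Scr with AT7519 (0.02947 CPM).

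MMACHC, a cobalamin-processing gene that HCF-1, THAP11 and ZNF143 are known to activate, stood at 28.69 and 25.86 CPM for siOGT1, 24.27 and 26.96 CPM for siOGT2, 17.64 and 21.6 CPM for OSMI2 and 22.25 and 20.63 CPM for Scr with AT7519. With DMSO it stood at 47.21 and 54.54 CPM for siOGT1, 43.43 and 51.44 CPM for siOGT2, 36.4 and 39.61 CPM for OSMI2 and 39.67 and 49.9 CPM for Scr. It fell with AT7519, with log2 fold changes of -0.899, -0.889, -0.959 and -1.06 in siOGT1, siOGT2, OSMI2 and Scr (highest adjusted p = 1.08e-05). Against Scr it was not called: 0.35 for siOGT1 (SE 0.128, adjusted p = 0.0647), 0.26 for siOGT2 (SE 0.128, adjusted p = 0.253) and -0.13 for OSMI2 (SE 0.13, adjusted p = 0.567) under AT7519, and 0.18, 0.0839 and -0.235 under DMSO (lowest adjusted p = 0.397).

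Gene lists of the complexes around HCF-1 were read beside the members by counts of calls, with no test of a list. With AT7519 in Scr, 2 of 17 genes of the SET1/MLL histone H3 lysine 4 methyltransferase complexes rose, 10 fell and 5 did not pass (median -0.346, all genes -0.0498), where 21.8% of all tested genes rose and 24.6% fell. The fallers numbered 6 with upper-quartile scaling (median -0.197, all genes 0.103) and 13 with library size only (median -0.596, all genes -0.295). NCOA6, an MLL3/4 subunit, changed by -0.92 (SE 0.0916, adjusted p = 9.55e-08), WDR82, a SET1 subunit, by -0.85 (SE 0.0929, adjusted p = 3.13e-07) and RBBP5, a core subunit, by -0.84 (SE 0.0933, adjusted p = 4e-07). Of 23 Polycomb writers of H2AK119 ubiquitin and H3K27 methylation, the H2A mark being the one that BAP1 removes, 2 rose, 14 fell and 7 did not pass (median -0.388), or 10 and 16 fell with the same scalings (medians -0.237 and -0.635), among them EZH1 (-1.44, SE 0.105, adjusted p = 1.94e-09), CBX2 (-1.26, SE 0.098, adjusted p = 4.44e-09) and EED (-1.13, SE 0.103, adjusted p = 3.11e-08). Of 13 genes of DNA methylation and demethylation 4 rose, 6 fell and 3 did not pass (median -0.52). With these scalings 4 rose and 6 fell, and 1 rose and 7 fell (medians -0.362 and -0.761). UHRF1, which guides maintenance methylation, was at -0.92 (SE 0.111, adjusted p = 1.08e-06) and DNMT3A, a de novo methyltransferase, at -0.66 (SE 0.0999, adjusted p = 1.85e-05). IDH2, which does not act on DNA but makes a cosubstrate of TET enzymes, was at 0.56 (SE 0.0723, adjusted p = 2.82e-06).

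Of 15 HCF-1 paralogs and DNA-binding partners 4 rose, 7 fell and 4 did not pass in Scr with AT7519 (median -0.123, or 0.0311 with upper-quartile scaling and -0.368 with library size only), the fallers including HCFC2, THAP7 (-0.88, SE 0.113, adjusted p = 2.49e-06) and SP1, a glutamine-rich activator (-1.07, SE 0.135, adjusted p = 3.26e-06). Of 16 SIN3 and NSL genes, the deacetylase and acetyltransferase complexes that HCF-1 and OGT join, 4 rose, 5 fell and 7 did not pass (median 0.0416), near the shares of all genes, with SAP130 (-1.05, SE 0.116, adjusted p = 3.99e-07) and PHF20 (-0.84, SE 0.0868, adjusted p = 1.52e-07) lower and HDAC1 (0.57, SE 0.0661, adjusted p = 6.43e-07) higher. For these 16 genes 8 rose with upper-quartile scaling (median 0.193) and 9 fell with library size only (median -0.206). Of 6 tested PR-DUB partners and paralogs, ASXL2 fell and the other 5 did not pass (median 0.211). With RLE 2 of the 6 rose (median 0.256), with upper-quartile scaling 4 rose (median 0.362), and with library size only 2 fell (median -0.036). In siOGT1, siOGT2 and OSMI2 the genes that fell with AT7519 numbered 11, 10 and 11 of 17 for SET1/MLL and 13, 13 and 14 of 23 for Polycomb. For SET1/MLL and Polycomb the median stayed below 0 in all arms with each scaling tried. The median of all genes moved as well, so the sign alone says little with library size only. Over the 4 arms it was 0.0735 to 0.195 with upper-quartile scaling and -0.298 to -0.224 with library size only.

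**Figure D4:**
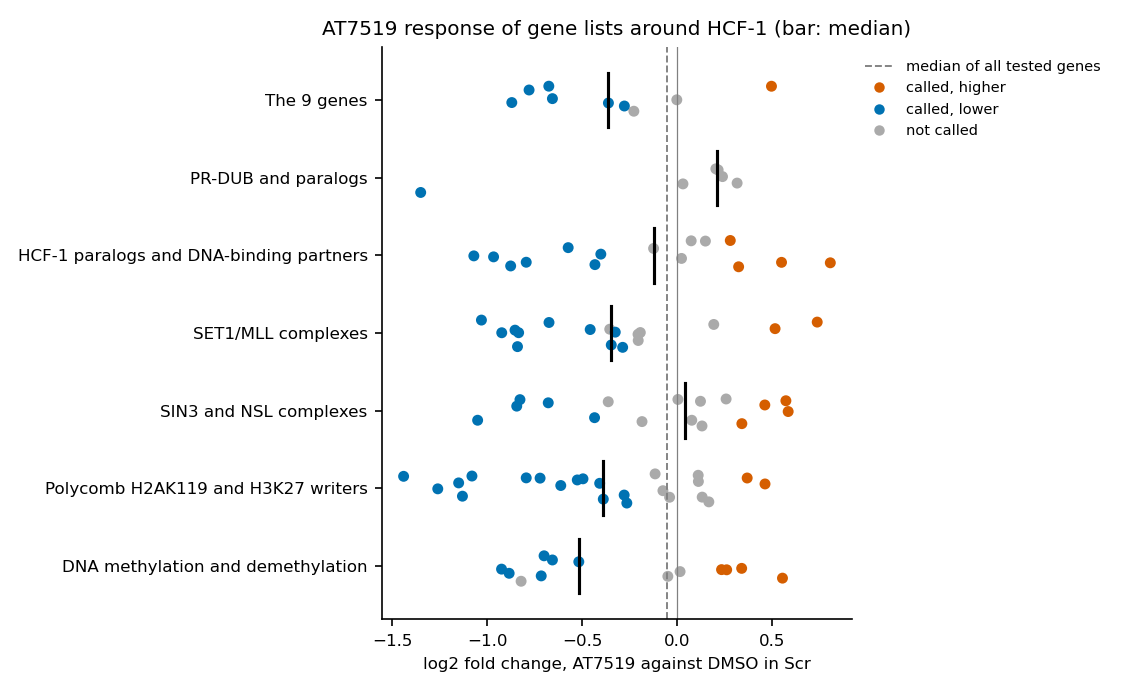
Log2 fold change with AT7519 against DMSO in Scr (x axis) of the 9 genes and of 6 gene lists (rows, 1 point per tested gene, scattered vertically for view). Coloured points were called, black bars are medians and the dashed line is the median of all tested genes (-0.0498). The medians of the 9 genes (-0.36), SET1/MLL (-0.346), Polycomb (-0.388) and DNA methylation (-0.52) lie left of the dashed line.

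Of the 90 tested genes of these 6 lists, 4 were called with both siRNAs against Scr in the same direction under AT7519 and 4 under DMSO, 3 of them under both, and all were lower. They were MYC, RBBP4 and RNF2 under both agents, SIN3A under AT7519 and PCGF5 under DMSO. Over all genes 19.2% and 10.4% were called with siOGT1, and 8.16% and 4.3% with siOGT2, under AT7519 and DMSO. These are shares for a single siRNA. The share of all genes called with both was not counted, so the counts with both are no result about the lists. By list, siOGT1 under AT7519 called 10 of 23 Polycomb genes (9 lower), 5 of 15 HCF-1 partners (3 lower), 4 of 16 SIN3 and NSL genes (4 lower), 2 of 6 PR-DUB genes (0 lower), 1 of 17 SET1/MLL genes and 1 of 13 DNA methylation genes (1 lower each). siOGT2 under AT7519 called 2, 1, 3, 0, 1 and 0 genes of these lists in that order, all lower. MYC, a transcription factor that binds HCF-1, fell under AT7519 with siOGT1 (-0.53, SE 0.0796, adjusted p = 8.67e-05), siOGT2 (-0.64, SE 0.0798, adjusted p = 5.79e-05) and OSMI2 (-0.64, SE 0.0799, adjusted p = 3.45e-05), and under DMSO with siOGT1 (-0.298, SE 0.0792, adjusted p = 0.019) and siOGT2 (-0.29, SE 0.0794, adjusted p = 0.04). PCGF5, a Polycomb RING finger subunit, fell under DMSO with siOGT1 (-0.77, SE 0.122, adjusted p = 0.000345) and siOGT2 (-0.48, SE 0.122, adjusted p = 0.0293). RBBP4, a histone chaperone of SIN3 and Polycomb complexes, fell under AT7519 with siOGT1 (-0.68, SE 0.0777, adjusted p = 5.01e-06) and siOGT2 (-0.26, SE 0.0774, adjusted p = 0.045) against Scr, and under DMSO with siOGT1 (-0.55, SE 0.0775, adjusted p = 0.000118) and siOGT2 (-0.32, SE 0.0774, adjusted p = 0.0225). RNF2, the E3 ligase that writes the H2A mark BAP1 removes, fell under AT7519 with siOGT1 (-0.52, SE 0.11, adjusted p = 0.002), siOGT2 (-0.46, SE 0.11, adjusted p = 0.0123) and OSMI2 (-0.43, SE 0.111, adjusted p = 0.0124), and under DMSO with siOGT1 (-0.47, SE 0.106, adjusted p = 0.0065) and siOGT2 (-0.43, SE 0.107, adjusted p = 0.0242). SIN3A, the scaffold of its complex, fell under AT7519 with siOGT1 (-0.53, SE 0.0997, adjusted p = 0.000755), siOGT2 (-0.39, SE 0.0995, adjusted p = 0.0192) and OSMI2 (-0.72, SE 0.101, adjusted p = 0.000107). THAP1, a THAP-family partner of HCF-1, was not called with either siRNA and fell with OSMI2 against Scr under AT7519 (-1.16, SE 0.149, adjusted p = 5.05e-05). Its AT7519 response differed between OSMI2 and Scr by -1.02 (SE 0.203, adjusted p = 0.0212). That difference was also called for CBX8 (-0.83, SE 0.124, adjusted p = 0.00311), MYC (-0.54, SE 0.112, adjusted p = 0.0281) and SIN3A (-0.6, SE 0.14, adjusted p = 0.0499), where 0.747% of all genes were called. These comparisons share their Scr samples. Those of OSMI2 with Scr can hold a further difference beside the inhibitor, as given above.

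Genes whose windows hold the longer letters of the ZNF143 and THAP11 site, ACTACAATT, were described by count. Of 35116 windows from 250 bases before to 50 after the start, 118 hold them (0.336%) and 974 hold ACTACAA (2.774%), and 81 genes with the longer letters were among 13212 tested genes with a window. Against Scr under AT7519, 18 of the 81 rose and 8 fell with siOGT1 (median 0.108, all genes with a window -0.0132), 11 rose and 1 fell with siOGT2 (0.0747, -0.00308), and 0 rose and 15 fell with OSMI2 (-0.153, -0.025). Under DMSO 13 rose and 4 fell with siOGT1 (0.0651, -0.0155), 6 rose and 3 fell with siOGT2 (0.0634, -0.0308), and 0 rose and 7 fell with OSMI2 (-0.0815, -0.0356). Among all genes with a window the share called was 25.4%, 11% and 18.9% under AT7519 and 14.3%, 5.95% and 4.36% under DMSO, beside 32.1%, 14.8% and 18.5%, and 21%, 11.1% and 8.64%, of those with the letters. The OSMI2 median was -0.00834 and 0.0197 under DMSO, and -0.0606 and -0.0546 under AT7519, with upper-quartile scaling and with library size only. The siOGT1 median under AT7519 was 0.184 with library size only and 0.0463 without Scr replicate 2. Higher and lower calls among all tested genes under AT7519 were 2377 and 2189 with siOGT1, 1116 and 829 with siOGT2, and 1235 and 2147 with OSMI2. Under DMSO they were 1165 and 1314, 457 and 568, and 117 and 593. For 555 genes with ACTACAA they were 117 and 53, 55 and 14, and 24 and 101 under AT7519. With DMSO these 555 gave 68 and 22, 26 and 11, and 4 and 25.

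Per sample, the median of centred log2 CPM over the 81 genes, less that over all genes with a window, was 0.123 and 0.135 in siOGT1, 0.121 and 0.12 in siOGT2, -0.07 and -0.139 in OSMI2 and -0.0187 and -0.0387 in Scr with AT7519. With DMSO it was -0.00592 and -0.00169 in siOGT1, -0.0369 and 0.0523 in siOGT2, -0.0727 and -0.114 in OSMI2 and -0.14 and -0.041 in Scr. With AT7519 the 4 siRNA samples lay above Scr and OSMI2 below it, and with DMSO both siRNA arms lay above Scr while OSMI2 overlapped it. The SD within groups, pooled, was 0.0395. With DMSO the nearest samples of Scr and of each siRNA arm lay closer than this SD (-0.041 for Scr against -0.0369 for siOGT2). So did those of Scr and OSMI2 with AT7519 (-0.0387 and -0.07). The orders with DMSO, and that of OSMI2 and Scr with AT7519, are thus not clear separations for the 81 genes. With AT7519 the siRNA samples and Scr lay further apart than this SD. For the 555 genes with ACTACAA the pooled SD was 0.0181. With AT7519 they gave 0.128 and 0.113 in siOGT1, 0.0922 and 0.0666 in siOGT2, -0.0581 and -0.0551 in OSMI2 and 0.0117 and 0.00413 in Scr. With DMSO they gave -0.0236 and 0.0142, -0.0434 and -0.0187, -0.11 and -0.13, and -0.104 and -0.0615. The order of OSMI2 and Scr can also hold a further difference beside the inhibitor, as given above. These are the letters of a site in a fixed window, and binding of ZNF143, THAP11 or HCF-1 was not measured.

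Genes with the profile most like that of each member were found over the 8 group means of centred log2 CPM, among 10115 genes with a mean log2 CPM of 3 or more, by the root mean square distance. For ZNF143, whose own profile has a root mean square of 0.591, they were CCT6B (0.0845), MAN1B1-DT (0.134) and POGLUT2 (0.145). For THAP11 (0.411) they were SH3RF1, ADO and RCL1 (0.073 to 0.0781), for FOXK1 (0.404) BOD1L1, TERF2 and GABPB1 (0.053 to 0.0557), and for FOXK2 (0.369) BTBD10, NXPE3 and NCOA1 (0.0407 to 0.0439). For TET2 (0.303) they were KDM6A, MARVELD3 and ATG14 (0.0591 to 0.0772), for TET3 (0.393) BOLA1, UBN1 and PRRC2C (0.0607 to 0.0889), for ASXL1 (0.247) GPN2, USP47 and SIK3 (0.046 to 0.0669), and for BAP1 (0.218) ORMDL3, BAD and TADA3 (0.0332 to 0.0409). HCFC1 (0.0957) was nearest to RRP12, WDR55 and SLTM (0.0362 to 0.0391), which with so flat a profile says little. The points share the agent as their main axis (52.8% of variance on the first component).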

How the data were processed

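The data are RNA sequencing of 16 LNCaP samples, 2 for each of 8 groups. Per the submitters' processing notes, STAR, HTSeq and DESeq2 were used; hg19 and GRCh37 are the builds named, and no version is. Libraries were strand-specific per the labels' protocols. The deposited table holds the authors' raw count per gene and sample. A deposited table of normalized values was not used here.

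GENCODE v29 (GRCh38) gave names for 55528 and exon lengths for 55951 of 60252 identifiers and was used for names, lengths and overlaps only. Promoter windows are RefSeq's (GRCh38.p14). The 9 members, the gene lists and the rules were chosen with earlier results of these data known. Named genes are the members, OGT, OGA, MMACHC, 5 paralogs, up to 3 called genes of a list by adjusted p and 3 profile neighbours per member. In the text on lists between arms, the genes called with both siRNAs are given, a rule added after values were seen, and THAP1 was chosen after its values were seen.

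Counts were fitted in R 4.3.3 with edgeR 4.0.16 over all 16 samples: filterByExpr (23830 genes), TMM, glmQLFit (robust) with 1 mean per group, and glmQLFTest, two-sided, with calls at p under 0.05 after Benjamini-Hochberg adjustment over all tested genes. Each SE was derived from the fold change and its F statistic. Planned comparisons, 13 in all, set AT7519 against DMSO in 4 arms, 3 arms against Scr under each agent, and tested 3 differences of responses. siOGT1 against siOGT2 under each agent was added after values were seen. Alternatives were RLE, upper-quartile and no scaling, DESeq2 1.42.0, other low-count filters, replicate blocks, a fit of the compared groups and each sample left out. Across genes the biological coefficient of variation was 0.11, and replicate libraries of 40216911 to 147019364 counts correlated with r of 0.983 to 0.991. The fit was tested on simulated data. Protein sequences were not used here. One luminal marker and the sum that holds it are not reported here.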

Additional observations from a re-analysis of the deposited data

How the results depend on the processing

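None of the 1152 member values under other settings, or of 2160 with a sample left out, reversed a called direction. Of the first, 1100 kept their side of the threshold, 11 lost and 41 gained a call, and of the second 2126 kept it, 18 lost and 16 gained one. These totals include ZNF143 with the siRNAs, which is described only. For siOGT1 and siOGT2 against Scr or each other, the 8 members other than ZNF143 are given. Other counts of members called are over all 9. With AT7519 against DMSO, upper-quartile scaling called 2 higher and 6 lower in siOGT1, 1 and 6 in siOGT2, 2 and 6 in OSMI2 and 1 and 4 in Scr. Library size only called 1 and 6, 0 and 6, 0 and 7, and 1 and 7 in that order. With a sample left out the count also moved in siOGT1, siOGT2 and Scr, but not in OSMI2. In siOGT1 against Scr the call of TET3 under DMSO was lost with some samples left out, as given above. There TET2 passed under DMSO with a replicate block within agent. In siOGT2 against Scr under DMSO, FOXK1 passed with DESeq2, and FOXK1 and TET2 with the block within agent. Under AT7519 FOXK2 passed with no low-count filter and with either block, and BAP1 and TET2 with the block within agent. For OSMI2 against Scr under AT7519 members called numbered 4 with RLE, 4 with DESeq2 and 4 with the block within agent. They numbered 1 with upper-quartile scaling, 1 with library size only and 1 with the compared groups only. When genes under a mean log2 CPM of 3 were dropped, 1 was called. The count also moved with a sample left out. In siOGT1 against siOGT2 under DMSO, FOXK1 passed with DESeq2, the stricter filter and the block within agent, and TET3 with DESeq2 and that block. Under AT7519 BAP1 passed with DESeq2 and the block within agent. TET2 and TET3 did not pass there with the compared groups only. The cause of these changes was not tested.

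Replicate numbers in the labels give 2 pairs only. Same-numbered deviations over 10158 genes correlated with r of 0.0448 to 0.734 within an agent and -0.135 to 0.432 between agents. Within an agent, r was 0.604 or more among Scr, siOGT1 and siOGT2 and at most 0.185 with OSMI2. The labels do not say what samples of the same number share, so the main fit has no block. The r among Scr, siOGT1 and siOGT2 is no reason against a block in their comparisons within an agent. FOXK2 against Scr under AT7519 passed with the replicate block for siOGT1 (0.27, adjusted p = 0.0354) and siOGT2 (0.32, adjusted p = 0.0236), and within agent (adjusted p = 0.00666 and 0.00286). ZNF143 with AT7519 against DMSO passed with the replicate block in Scr (-0.23, adjusted p = 0.02) and siOGT1 (0.195, adjusted p = 0.0435). With the block within agent, genes called in siOGT1 against Scr numbered 6596 under AT7519 and 4387 under DMSO, in siOGT2 3931 and 2574, in OSMI2 5555 and 2391, and in siOGT1 against siOGT2 3190 and 1300, against 4566, 2479, 1945, 1025, 3382, 710, 1532 and 433 without it. With the compared groups only, genes called under AT7519 were 2533, 247, 2280 and 273 for these 4 comparisons. OSMI2 against Scr under DMSO gave 378 with upper-quartile scaling. Dropping genes under that mean, which tests fewer genes, gave 6318, 6519, 7122 and 6782 for AT7519 in siOGT1, siOGT2, OSMI2 and Scr, against 9880, 10728, 11236 and 11072. Differences of responses were 12 for siOGT1 (9 to 124 over other settings), 0 for siOGT2 (0 to 8) and 178 for OSMI2 (178 to 551), and with a sample left out 3 to 25, 0 to 2 and 33 to 378. With a sample left out, genes called in arms against Scr were 2853 to 4981, 872 to 2043 and 1583 to 4192 under AT7519 and 776 to 2845, 182 to 1247 and 9 to 777 under DMSO, and in siOGT1 against siOGT2 841 to 1644 and 131 to 528. Leaving out 1 of 2 samples assumes that the lone sample varies like the other groups. Splits of calls moved with library size only in siOGT1 against Scr to 3277 higher and 1640 lower under AT7519 (2377 and 2189) and 1613 and 1065 under DMSO (1165 and 1314), in siOGT2 under DMSO to 703 and 422 (457 and 568), or 609 and 496 with upper-quartile scaling, in OSMI2 under DMSO to 209 and 181 (117 and 593), or 157 and 221, and in siOGT1 against siOGT2 under AT7519 to 1029 and 735 (683 and 849). The planned look at protein sequences was not run.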
